A study of Sus scrofa with 12 samples.

Results

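HMGCS1, SQLE, SC5D, FASN and ABCA1 are 5 genes of cholesterol and fatty acid handling, described here across the endometrium of 12 sows. They are 5 of 6765 genes on the array, measured by 8 of 23999 probe sets: 4 for FASN and 1 for each of the others, each annotated with that symbol alone. They were selected on the difference between pregnant and non-pregnant sows in these same arrays, so their pregnancy differences are given as descriptions and without a test. Breed was not used in the selection, and breed differences and the interaction of pregnancy with breed were tested.

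Cells build cholesterol from acetyl-CoA. HMGCS1, the cytosolic HMG-CoA synthase, makes the precursor of mevalonate, mevalonate is turned into farnesyl units that are joined to squalene, SQLE (squalene epoxidase) oxidises squalene before it is closed into the sterol ring, and SC5D (sterol-C5-desaturase) works near the end of the route. FASN, fatty acid synthase, assembles saturated fatty acids from acetyl and malonyl units. When cellular sterol is low, SREBP transcription factors switch on genes of both routes, whereas LXR receptors respond to oxysterols and raise ABCA1, which exports cholesterol to apolipoproteins. The label "sterol and fatty acid synthesis" therefore covers 4 of the 5 genes by function, since ABCA1 is an exporter and not a biosynthetic enzyme. In the pig the elongated conceptuses begin to attach to the uterine epithelium around Day 14, and until then they live on uterine secretions.

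Endometrium was collected on Day 14 after insemination from 6 pregnant sows and from 6 non-pregnant sows that had been inseminated with inactivated semen, with 3 Yorkshire and 3 Landrace animals in each. No other treatment or genotype was named in the labels. Both horns were flushed, and the tissue taken included epithelium and the connective tissue below it but not the muscle layer, so each value is an average over several cell types. Total RNA from each sow was hybridised to 1 Affymetrix porcine array, and the deposited values are log2 expression values after RMA. On this scale 1 unit is a doubling, and the distributions of the arrays have been made alike, so a difference is relative to the other transcripts of the same array. The number of arrays, 6 against 6, limits the precision.

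By their correlations with the other arrays, those of sows 7 and 12 were set apart. Non-pregnant Landrace sow 7 had the lowest correlation with its nearest array, at r of 0.975 across probe sets, against 0.992 for the closest pair. The array nearest to pregnant Yorkshire sow 12 was that of non-pregnant Yorkshire sow 11, at r of 0.992. The nearest array of pregnant Landrace sow 8 was also a non-pregnant one, that of sow 5, at 0.983. Results are given with and without sows 7 and 12, whereas sow 8 was left out only singly. Leaving out sows 7 and 12 together was chosen after seeing the data. Epithelial markers ranged from ELF3 at a mean of 7.19 to EPCAM at 11.53 on the log2 scale, with CDH1 at 10.81. The stromal marker DCN, at 12.60, and the smooth muscle marker ACTA2, at 11.25, were also bright. These levels alone therefore do not identify the tissue.

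HMGCS1 had the largest pregnancy difference of the 5 genes. In non-pregnant sows its log2 values were 8.55, 8.72 and 8.94 in Yorkshire sows 1, 3 and 11 and 8.92, 8.10 and 8.62 in Landrace sows 5, 7 and 9. In pregnant sows they were 7.28, 7.14 and 8.32 in Yorkshire sows 2, 4 and 12 and 6.71, 6.98 and 6.66 in Landrace sows 6, 8 and 10. All pregnant values except that of sow 12 lay below every non-pregnant value, and sow 12 lay above non-pregnant sow 7. The means were 8.64 ± 0.309 in non-pregnant and 7.18 ± 0.606 in pregnant sows (SD, n = 6 each), a log2 difference of -1.46 ± 0.21 (SE), which is 2.75-fold. The difference was -1.53 without sow 7, -1.66 without sow 12 and -1.76 without both. By group the order ran from non-pregnant Yorkshire at 8.74 ± 0.193 through non-pregnant Landrace at 8.55 ± 0.418 and pregnant Yorkshire at 7.58 ± 0.646 to pregnant Landrace at 6.79 ± 0.172 (SD, n = 3 each). The first pair of neighbours in that order overlapped, and so did the middle pair, whereas the 2 pregnant breeds did not.

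SQLE was high in every non-pregnant sow and low mainly in the pregnant Landrace sows. Its non-pregnant log2 values were 8.43, 8.54 and 8.79 in Yorkshire and 8.76, 8.29 and 8.44 in Landrace sows, in the same order of sows as above. Its pregnant values were 8.001, 7.63 and 8.40 in Yorkshire and 6.70, 6.36 and 6.79 in Landrace sows. Pregnant sow 12 lay within the non-pregnant range, the other 2 pregnant Yorkshire sows lay below it, and the 3 pregnant Landrace sows lay far below all others. The means were 8.54 ± 0.197 and 7.32 ± 0.814 (SD, n = 6 each), a difference of -1.23 ± 0.23 (SE) or 2.34-fold, and -1.38 without sows 7 and 12. The SD within pregnant sows was the largest of the 8 probe sets. The group means fell into the order of non-pregnant Yorkshire 8.59 ± 0.183, non-pregnant Landrace 8.50 ± 0.241, pregnant Yorkshire 8.01 ± 0.385 and pregnant Landrace 6.62 ± 0.224 (SD, n = 3 each), and of these neighbours only the last pair did not overlap.

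SC5D had a smaller difference, with little spread within the groups. Its non-pregnant log2 values were 8.52, 8.94 and 8.76 in Yorkshire and 9.02, 8.88 and 8.75 in Landrace sows. Its pregnant values were 8.34, 8.03 and 8.46 in Yorkshire and 8.23, 7.98 and 8.15 in Landrace sows. SC5D was the 1 gene of the 5 in which every pregnant sow lay below every non-pregnant sow, a pattern found in 3% of all genes, although the gap between the groups was narrow. The means were 8.81 ± 0.180 and 8.20 ± 0.182 (SD, n = 6 each), a difference of -0.61 ± 0.11 (SE) or 1.53-fold, and -0.66 without sows 7 and 12. Non-pregnant Landrace and Yorkshire sows, at 8.89 ± 0.138 and 8.74 ± 0.213, overlapped, as did pregnant Yorkshire and Landrace sows, at 8.28 ± 0.222 and 8.12 ± 0.125 (SD, n = 3 each).

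**Figure D1:**
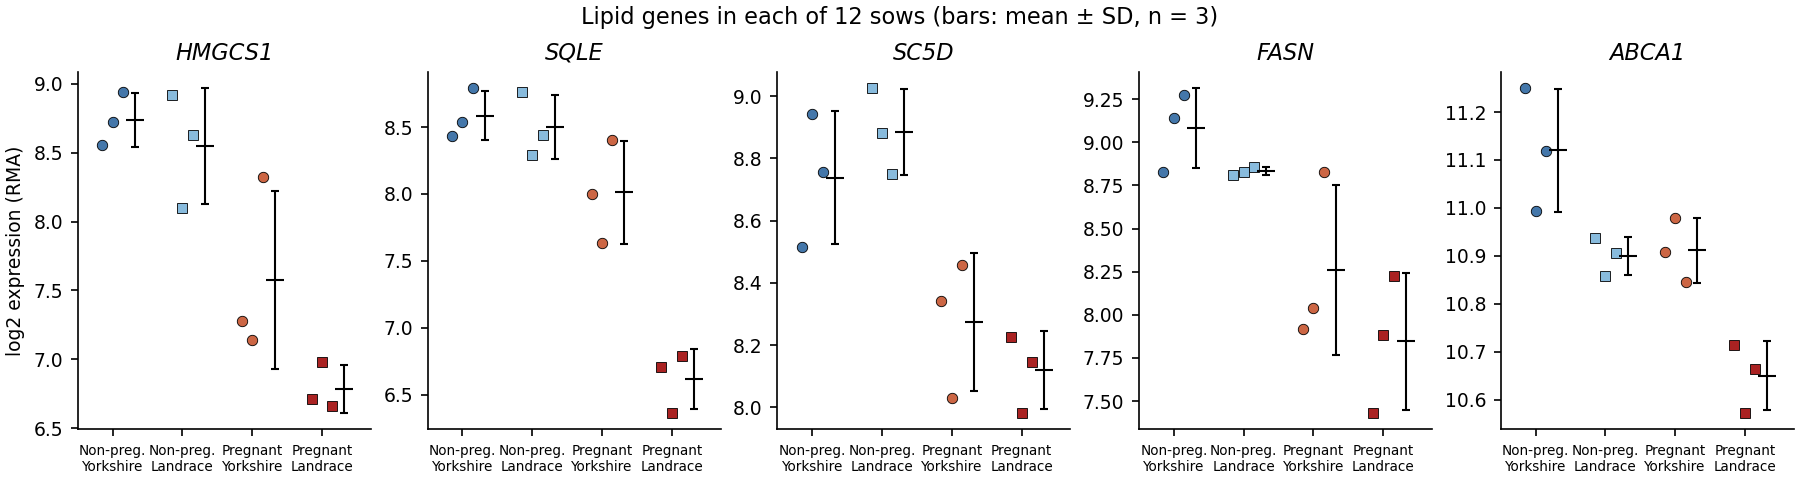
Log2 expression (RMA, vertical axis, a separate range for each gene) of the 5 genes in each sow, by pregnancy and breed; FASN is its brightest probe set, circles are Yorkshire and squares Landrace sows, and bars are the mean ± SD of 3 sows. The pregnant Landrace sows are lowest for SQLE, at 6.36 to 6.79, while the vertical range of ABCA1 spans less than 1 log2 unit.

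FASN was represented by 4 probe sets, and only the brightest of them differed between pregnant and non-pregnant sows by more than the spread. On that probe set the non-pregnant log2 values were 8.83, 9.14 and 9.28 in Yorkshire and 8.81, 8.83 and 8.86 in Landrace sows. The pregnant values were 7.92, 8.04 and 8.83 in Yorkshire and 7.43, 7.88 and 8.23 in Landrace sows. Pregnant sow 12 was again the exception, lying within the non-pregnant range while the other 5 pregnant sows lay below it. The means were 8.96 ± 0.200 and 8.05 ± 0.461 (SD, n = 6 each), a difference of -0.90 ± 0.17 (SE) or 1.87-fold, and -1.05 without sows 7 and 12. The group means were 9.08 ± 0.231 in non-pregnant Yorkshire, 8.83 ± 0.0248 in non-pregnant Landrace, 8.26 ± 0.495 in pregnant Yorkshire and 7.85 ± 0.398 in pregnant Landrace sows (SD, n = 3 each), and each neighbouring pair overlapped.

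The other 3 FASN probe sets had means of 6.88, 6.07 and 5.52 in non-pregnant and 6.87, 6.03 and 5.59 in pregnant sows, with differences of -0.01, -0.04 and 0.06. Their values ranged between 6.65 and 7.01, 5.88 and 6.30, and 5.33 and 5.73 over the 12 sows. They lay between the 35.1 and the 63.0 percentile of their arrays, whereas the brightest lay between the 70.4 and the 92.0 percentile. Averaged over the 4 probe sets, the difference of FASN was -0.22. Which part of the transcript each probe set reads was not analysed here, so the FASN difference rests on 1 of 4 probe sets.

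**Figure D2:**
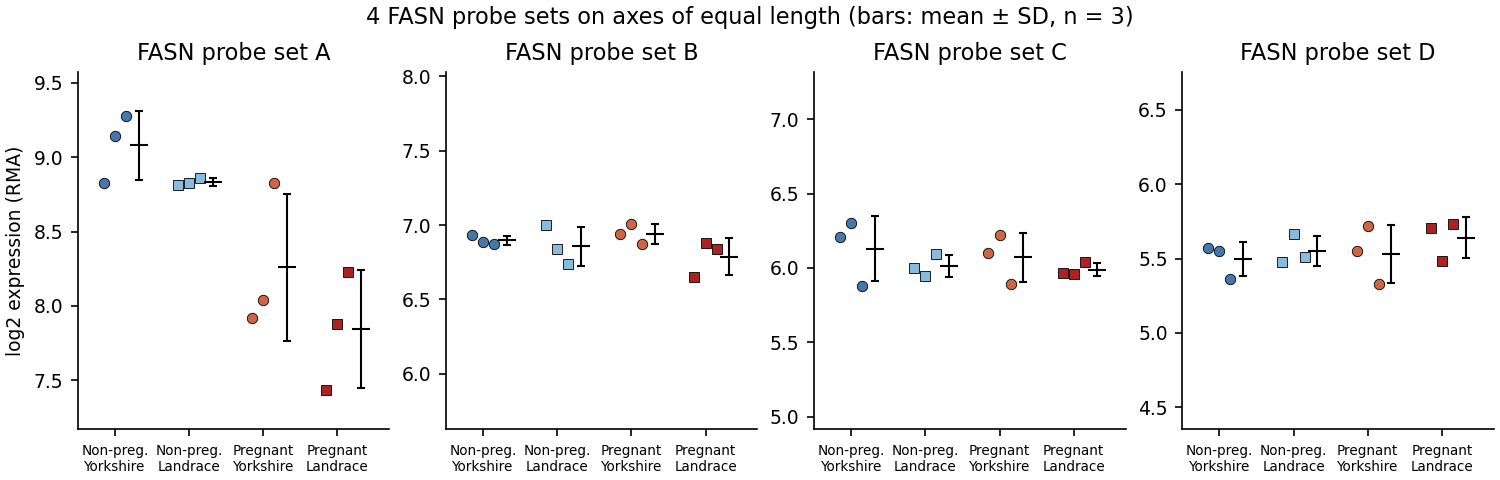
Log2 expression (RMA, vertical axes of equal length) of the 4 FASN probe sets, A being the brightest, in each sow by pregnancy and breed, with the mean ± SD of 3 sows. The groups separate on probe set A, with a difference of -0.90, and not on B, C or D, whose differences are -0.01, -0.04 and 0.06.

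ABCA1, the exporter, lay at the 97.7 percentile of its array or above in every sow, and its difference was the smallest of the 5 genes when FASN is taken by its brightest probe set. Its non-pregnant log2 values were 11.25, 10.99 and 11.12 in Yorkshire and 10.94, 10.86 and 10.91 in Landrace sows. Its pregnant values were 10.91, 10.98 and 10.85 in Yorkshire and 10.71, 10.57 and 10.66 in Landrace sows. Within each pregnancy state all Landrace sows lay below all Yorkshire sows, and the pregnant and non-pregnant ranges overlapped. The means were 11.01 ± 0.148 and 10.78 ± 0.156 (SD, n = 6 each), a difference of -0.23 ± 0.06 (SE) or 1.17-fold, and -0.22 without sows 7 and 12. Non-pregnant Landrace and pregnant Yorkshire sows had nearly the same mean, 10.90 ± 0.0401 and 10.91 ± 0.0668 (SD, n = 3 each), with overlapping values.

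The breed difference, Landrace minus Yorkshire with pregnancy as a term, was called for ABCA1 alone among the 5 genes, at -0.24 ± 0.06 (SE, limma adjusted p = 0.0418 over all probe sets). Over all genes 3.24% were called lower and 2.03% higher in Landrace sows. The ABCA1 call lay close to the threshold and was lost without any 1 of 11 of the 12 sows, all but sow 3, with adjusted p between 0.0337 and 0.0860. Without sows 7 and 12 together its adjusted p was 0.103. SQLE had a breed difference of -0.74 ± 0.23 (adjusted p = 0.0885), HMGCS1 of -0.49 (adjusted p = 0.219) and FASN of -0.33 (adjusted p = 0.296), and these did not pass the test. For SC5D the 95% confidence interval of the breed difference was -0.23 to 0.23. RNA quality was read from control probes for GAPDH, whose 3′ minus 5′ log2 difference was also lower in Landrace sows, at 0.452 ± 0.0515 against 0.683 ± 0.0981 (SD, n = 6 each, exact permutation p = 0.00216, two-sided, the smallest that 6 against 6 can give). The same measure on actin differed by -0.0272 (exact permutation p = 0.593), and its part in the breed results was not tested.

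The question of whether pregnancy acted alike in both breeds was addressed with the interaction, the pregnancy difference in Landrace minus that in Yorkshire sows. The limma test called 0 genes of the whole array after adjustment, 0%, and so none of the 5. Without adjustment SQLE had a p of 0.000663, with a pregnancy difference of -1.88 in Landrace against -0.57 in Yorkshire sows and an interaction of -1.31 (95% confidence interval -1.93 to -0.69, adjusted p = 0.919). Its unadjusted p stayed between 0.000156 and 0.00232 when any 1 sow was left out. HMGCS1 had differences of -1.76 and -1.16 in Landrace and Yorkshire sows, with an interaction of -0.60 (95% confidence interval -1.50 to 0.29), which was -0.23 without sow 12. For SC5D, FASN and ABCA1 the interactions were -0.30, -0.17 and -0.04, with intervals that included 0.

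The breed difference was also taken within each pregnancy state. This contrast was chosen because the 3 pregnant Landrace values of SQLE had been seen to lie low, so it is given as a description without a test. In pregnant sows the Landrace minus Yorkshire difference of SQLE was -1.39 ± 0.20 (SE), and it was -1.20 without sow 12. In non-pregnant sows it was -0.09. HMGCS1 had a difference of -0.79 in pregnant sows, which was -0.42 without sow 12.

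The other enzymes of cholesterol synthesis were then examined, with the 5 genes left out. Of 8 measured genes of the mevalonate pathway and sterol ring formation, 5 fell in pregnant sows and none rose, and all 8 had negative differences, with a median of -1.01 against -0.03 over all 6765 genes. Over all genes 7.48% fell and 4.58% rose (limma adjusted p under 0.05). The count was 7 of 8 without sow 12 and 8 of 8 without sows 7 and 12, and it was between 4 and 7 when any 1 sow was left out. These genes stand on the same arrays and move together, so they are not independent observations. Other steps of the route, among them IDI1 and LSS, were not analysed here.

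In the mevalonate pathway ACAT2, the thiolase that supplies the substrate of HMGCS1, had log2 values of 7.96 to 8.53 in non-pregnant sows, with a median of 8.23, and of 6.53 to 7.89 in pregnant sows, with a median of 6.90. The groups did not overlap, and ACAT2 fell by 1.23 ± 0.18 (SE, adjusted p = 0.00560). FDPS, which makes farnesyl diphosphate, had values of 11.68, 11.33 and 11.87 in non-pregnant Yorkshire and 11.76, 10.17 and 11.71 in non-pregnant Landrace sows. Its pregnant values were 10.94, 10.66 and 11.45 in Yorkshire and 8.77, 9.77 and 9.37 in Landrace sows. The groups overlapped, with pregnant sow 12 above non-pregnant sows 3 and 7 and non-pregnant sow 7 below pregnant sows 2, 4 and 12. FDPS fell by 1.26 ± 0.33 (adjusted p = 0.0383), a call that was kept without sows 3, 7, 8 or 12 and lost without any 1 of the other 8 (adjusted p up to 0.0849). FDFT1, squalene synthase, had a pregnancy difference of -0.66 ± 0.20 that did not pass (adjusted p = 0.0674).

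In sterol ring formation MSMO1, a methyl sterol oxidase, fell by 1.11 ± 0.18 (SE, adjusted p = 0.00667), from 10.16 to 10.77 in non-pregnant to 8.85 to 10.41 in pregnant sows, with sow 12 the highest pregnant value. HSD17B7, a sterol ketoreductase, fell by 1.22 ± 0.22 (adjusted p = 0.00906), and CYP51, the lanosterol demethylase, by 0.92 ± 0.19 (adjusted p = 0.0148). In both, sow 12 was again the highest of the pregnant sows and overlapped the non-pregnant range. TM7SF2, a sterol reductase, and NSDHL, a sterol dehydrogenase, had differences of -0.39 (adjusted p = 0.0530) and -0.27 (adjusted p = 0.132) that did not pass. The calls of ACAT2, MSMO1, HSD17B7 and CYP51 were made without any 1 of the 12 sows.

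Averaged over the 8 genes, expressed as the log2 difference from the non-pregnant mean, the 3 pregnant Landrace sows lay at -1.32, -1.24 and -1.31. The pregnant Yorkshire sows lay at -0.57, -0.79 and -0.06, the last being sow 12. The non-pregnant sows lay between -0.47, which was sow 7, and 0.27. Sow 12 therefore lay within the non-pregnant range, and sow 7 was the lowest of its own group.

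**Figure D3:**
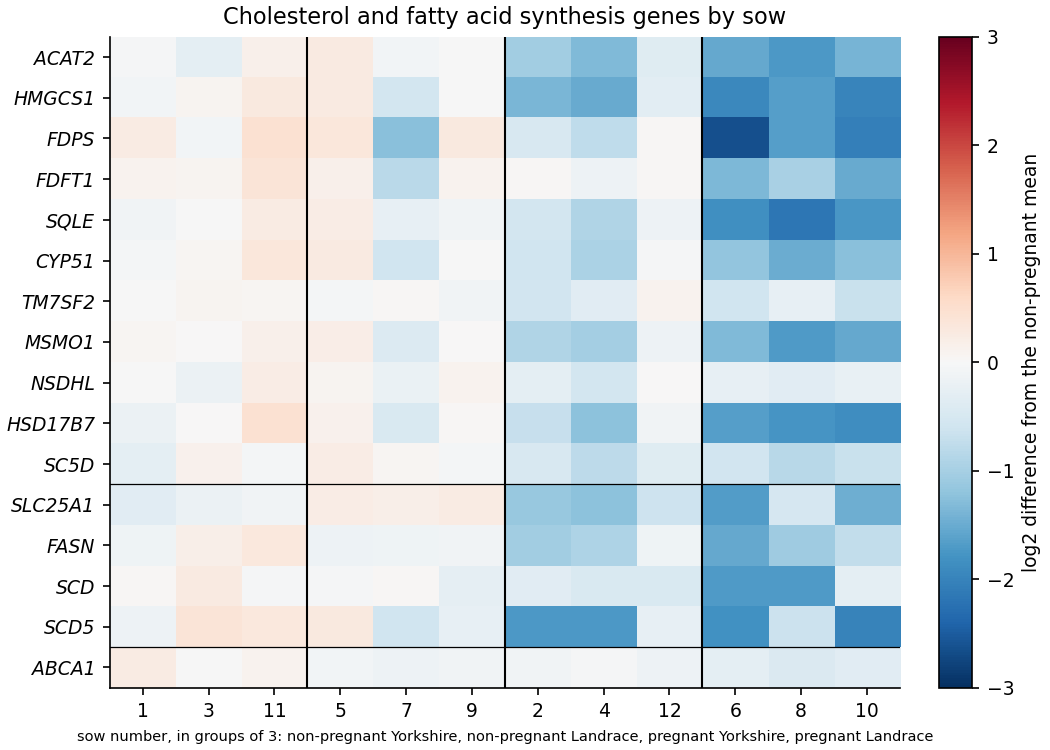
Log2 difference from the mean of the 6 non-pregnant sows (colour scale, -3 to 3) for each gene (rows) and sow (columns, in 4 groups of 3); cholesterol synthesis genes are above the first horizontal line, citrate export and fatty acid genes between the lines and ABCA1 below. Pregnant Landrace sows 6, 8 and 10 are darkest blue over most cholesterol genes, and pregnant sow 12 is close to 0 for most of them.

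The other genes of the pathway were examined for the breed pattern of SQLE. The median pregnancy difference of the 8 genes was -1.33 in Landrace and -0.62 in Yorkshire sows, the interaction was negative for 7 of 8, and its median was -0.73 against 0.02 over all genes. Without adjustment 5 of the 8 had a p under 0.05 with a negative interaction, against 2.68% of all genes, and 0 passed after adjustment. These 5, named after their values were seen, were FDPS at -1.30, HSD17B7 at -0.89, FDFT1 at -0.88, ACAT2 at -0.76 and MSMO1 at -0.70. The count of 5 rested on single sows: it was 0 without sow 5, 1 without sow 1, 3, 9, 10 or 12, 2 without sow 8, 3 without sow 2 or 6, 4 without sow 11, and 6 without sow 4, without sow 7 or without sows 7 and 12 together. Without sow 12 the median interaction was -0.46. FDFT1 was the 1 of the 8 genes called lower in Landrace over both states, at -0.81 ± 0.20 (SE, adjusted p = 0.0376). That call was lost in 8 of the 12 fits that left out 1 sow, sows 7 and 12 among them (adjusted p up to 0.0841).

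**Figure D4:**
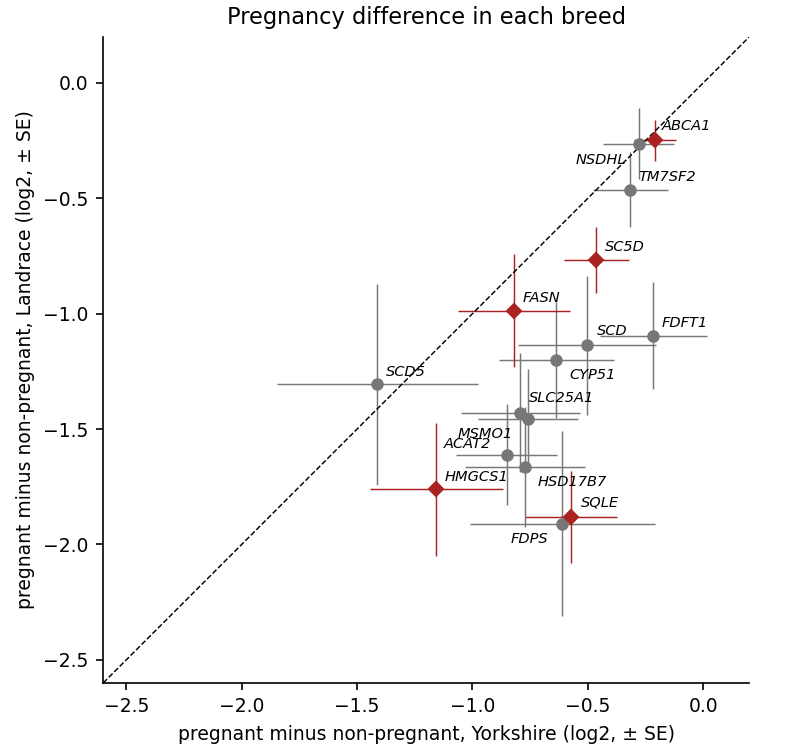
Pregnant minus non-pregnant log2 difference (± SE) in Yorkshire sows (horizontal) and Landrace sows (vertical) for the 5 genes (red diamonds) and other genes of the 2 synthetic routes (grey circles), with the line of equal differences dashed. SQLE lies at -0.57 and -1.88, while ABCA1 and FASN lie close to the line.

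Of the 16 other measured genes of fatty acid synthesis and elongation, 3 fell, beside 7.48% of all genes. None rose, and the median difference was -0.10. The 3 that fell were SLC25A1, SCD5 and SCD. SLC25A1, the mitochondrial citrate carrier that supplies acetyl-CoA for both routes, had 9.48 to 10.07 in non-pregnant and 8.14 to 9.32 in pregnant sows, did not overlap, and fell by 1.11 ± 0.20 (SE, adjusted p = 0.00887). The desaturase SCD5, which makes monounsaturated fatty acids, fell by 1.36 ± 0.30 (adjusted p = 0.0184), with pregnant values of 7.12, 7.10 and 8.58 in Yorkshire and 7.01, 8.18 and 6.83 in Landrace sows. Its 2 highest pregnant values, in sows 12 and 8, lay near or above the lowest non-pregnant value of 8.22. SCD, the stearoyl-CoA desaturase, had 7.99 to 8.53 in non-pregnant and 6.56 to 7.97 in pregnant sows without overlap, and fell by 0.82 ± 0.22 (adjusted p = 0.0431). The SCD call was kept only without sow 10 or sow 12 and was lost without any 1 of the other 10 (adjusted p up to 0.0925). ACACA, which supplies malonyl-CoA to FASN, was dim, at a mean of 4.39, with a difference of 0.01, and is named after its value was seen.

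Among 8 measured genes of SREBP regulation 1 fell and none rose, with a median of -0.17. Beside the 7.48% of all genes that fell, a single call does not set this list apart. SREBF2, which encodes the SREBP mainly responsible for cholesterol synthesis genes, had 8.78, 8.75 and 8.79 in non-pregnant Yorkshire and 8.58, 8.18 and 8.41 in non-pregnant Landrace sows. In pregnant sows it had 8.21, 8.22 and 8.80 in Yorkshire and 8.11, 7.80 and 7.67 in Landrace sows. Sow 12 held the highest value of all 12 sows, and the other 5 pregnant sows, at 8.22 or lower, lay below all non-pregnant sows except sow 7. SREBF2 fell by 0.45 ± 0.12 (SE, adjusted p = 0.0393) and was lower in Landrace sows by a difference of -0.47 ± 0.12 (adjusted p = 0.0405). The pregnancy call was kept without sow 6, 7 or 12 and lost without any 1 of the other 9 (adjusted p up to 0.0931). SREBF2 had 3 other probe sets, and none of them was called for pregnancy, although the call was kept on the mean of its probe sets. SREBF1, the SREBP linked mainly to fatty acid synthesis, had a difference of -0.06 (adjusted p = 0.753). INSIG1, which holds SREBP back when sterol is plentiful, had a difference of -0.48 ± 0.32 (adjusted p = 0.417), and it was -0.18 without sow 8, whose value of 6.57 was the lowest.

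Of the 11 other measured genes of cholesterol export and of the LXR response, 3 rose and none fell, with a median of 0.24. Over all genes 4.58% rose and 7.48% fell. MYLIP, an LXR-induced ubiquitin ligase, rose by 0.62 ± 0.16 (SE, adjusted p = 0.0383). APOA1, an acceptor of cholesterol exported by ABCA1, rose by 0.52 ± 0.14 (adjusted p = 0.0421), and CYP27A1, which makes 27-hydroxycholesterol, by 0.44 ± 0.10 (adjusted p = 0.0240). Leaving out 1 sow ended these calls in 9, 8 and 4 of 12 fits, and their adjusted p then reached 0.0900, 0.0979 and 0.0605. CYP27A1 had 2 other probe sets, and neither was called. NR1H3, the LXR-alpha receptor, had a difference of -0.02 (adjusted p = 0.969), and APOE, another acceptor, of 0.24 (adjusted p = 0.132). By sign, 7 of the 11 differences were positive and 4 negative. The lowest was that of LPCAT3, named after its value was seen, at -0.39 (limma adjusted p = 0.0516). Its values were 7.80 to 8.31 in non-pregnant and 7.33 to 7.76 in pregnant sows. With median centring 1 gene of this list fell. ABCG1 was not analysed here.

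In the remaining lists few genes were called, and those that were rose. In fatty acid activation and uptake 1 of 14 rose: LPL, the lipase that frees fatty acids from lipoproteins, at 0.65 ± 0.17 (SE, adjusted p = 0.0384). In lipoprotein uptake and lysosomal cholesterol 1 of 9 rose: LIPA, the lysosomal cholesterol ester hydrolase, at 0.46 ± 0.12 (adjusted p = 0.0418). In storage 2 of 12 rose, the triglyceride lipase PNPLA2 at 0.57 ± 0.11 (adjusted p = 0.0127) and the monoglyceride lipase MGLL at 0.47 ± 0.11 (adjusted p = 0.0263). In fatty acid oxidation 2 of 17 rose, CPT1B, a carnitine palmitoyltransferase of mitochondrial import, at 0.47 ± 0.08 (adjusted p = 0.00758) and the coactivator PPARGC1A at 0.59 ± 0.16 (adjusted p = 0.0476). Of these, PNPLA2 and CPT1B were called without any 1 of the 12 sows. Leaving out 1 sow ended the calls of LPL in 8 of 12 fits, LIPA in 9, MGLL in 4 and PPARGC1A in 9, and their adjusted p then reached 0.0886, 0.0970, 0.0670 and 0.110. LPL, LIPA and MGLL each had 1 other probe set that was not called, whereas the 1 other probe set of PNPLA2 was called as a rise too. On the mean of its probe sets the LIPA call was lost, and those of LPL and MGLL were kept. Over all 95 other lipid genes, 9 rose and 9 fell, with a median of -0.02, beside 4.58% and 7.48% of all genes. Of the 9 falls, 8 were in cholesterol and fatty acid synthesis and 1 was SREBF2.

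**Figure D5:**
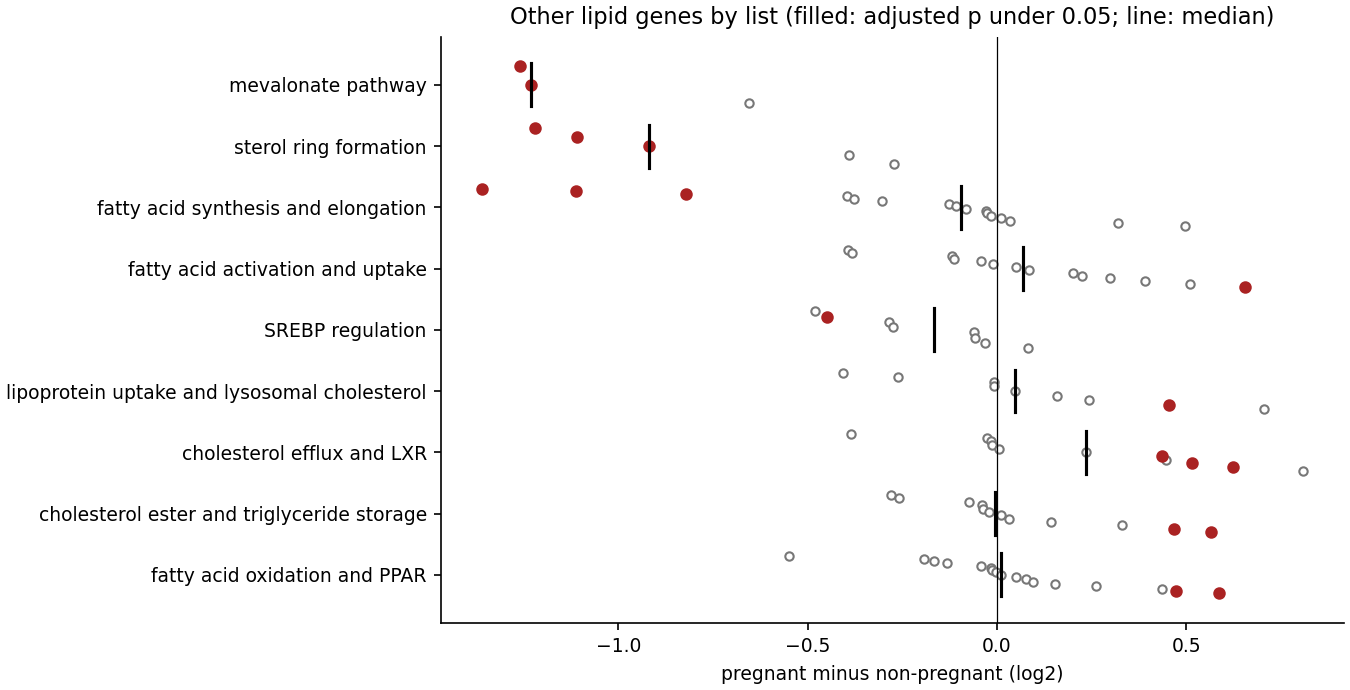
Pregnant minus non-pregnant log2 difference (horizontal axis) of each measured gene on the 9 lists, with the 5 genes left out; filled circles passed the limma test at adjusted p under 0.05, and the vertical strokes are list medians. The medians of the mevalonate and sterol ring lists, -1.23 and -0.92, lie apart from those of the other lists, between -0.17 and 0.24.

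For breed, 7 of the 95 other lipid genes were called, 5 lower and 2 higher in Landrace sows, shares near those of all genes, 3.24% and 2.03%. Besides FDFT1 and SREBF2, the lower ones were NFYC, a subunit of the NF-Y factor that acts with SREBP, at -0.55 (adjusted p = 0.0187), PPARGC1A at -0.68 (adjusted p = 0.0340) and RXRB, a partner receptor of LXR, at -0.38 (adjusted p = 0.0253). The higher ones were ACSL4, which activates long-chain fatty acids, at 1.23 (adjusted p = 0.0251) and LRPAP1, a chaperone of lipoprotein receptors, at 0.37 (adjusted p = 0.0320). NFYC, RXRB, ACSL4 and LRPAP1 are named after their values were seen. The count was 3 without sow 12, 3 without sow 7 and 2 without both.

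Whether the 5 genes varied together was examined within each pregnancy state, since pooling would reflect the selection. Of 20 pairs, 1 passed adjustment on Pearson's r: HMGCS1 and SQLE in the 6 non-pregnant sows, at r of 0.925 (exact permutation p = 0.00139, adjusted p = 0.0278). Their ranks were identical, with a Spearman's rho of 1.00 (exact permutation p = 0.00278, adjusted p = 0.0556), and r was 0.981 without the 2 sows farthest from the median of HMGCS1. In the 6 pregnant sows the same pair had r of 0.828 (exact permutation p = 0.0194, adjusted p = 0.194) and rho of 0.771 (exact permutation p = 0.103), with r of 0.795 without the 2 farthest sows. Within breed, after the breed means were taken out, r was 0.924 in non-pregnant and 0.643 in pregnant sows. SQLE and ABCA1 had r of 0.824 in pregnant sows (exact permutation p = 0.0653, adjusted p = 0.345), which turned to -0.27 once breed means were taken out.

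With the 4 group means taken out, the correlation of residuals over the 12 arrays was computed against the 4879 genes above the median level, as a description. No hybridisation batch was named in the labels, so a batch effect could not be examined, and sow 12 carries much of the residual. HMGCS1 was most like SEPT8 (r of 0.973), SYNE2 (0.973) and SEC23IP (0.963), and SQLE was most like CYP51 (0.926), TRMT10C (0.923) and DUSP11 (0.919). SC5D was most like GNL3L (0.892), MAPKAPK5 (0.890) and CANT1 (0.889), FASN like SMARCA4 (0.967), RTN4 (0.949) and BUB3 (0.938), and ABCA1 like HR (0.912), PTBP3 (0.897) and ADAMTS1 (0.890). CYP51 was the 1 gene of sterol synthesis among these 15.

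The median residual correlation with the 8 other cholesterol synthesis genes was 0.851 for SQLE and 0.783 for HMGCS1, beside medians with all genes of -0.01 and 0.04. Without sow 12 they were 0.746 and 0.717. For FASN it was 0.490 and for SC5D 0.432, which became 0.062 and 0.197 without sow 12. For ABCA1 it was -0.02. By list, the median of SQLE was 0.852 with the 5 sterol ring genes but 0.442 with the 3 mevalonate genes, and 0.747 and 0.321 without sow 12. That of HMGCS1 was 0.862 and 0.745, and 0.643 and 0.840 without sow 12.

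Markers of cell types moved with pregnancy too, and their counts stand beside 4.58% of all genes that rose and 7.48% that fell. In bulk tissue fewer cells of a type and less RNA per cell cannot be told apart. Of 11 measured of 12 epithelial markers, KRT8 and CLDN7 fell, by 0.83 and 0.47, MUC1 rose by 0.29, and 8 did not pass. The mean epithelial level, as a log2 difference from the non-pregnant mean, ranged from -0.14 to 0.10 in non-pregnant and from -0.56 to 0.14 in pregnant sows. Of 9 measured of 10 endothelial markers 6 rose, with means of -0.32 to 0.25 in non-pregnant and 0.33 to 0.93 in pregnant sows, and of 7 measured of 9 stromal markers 4 rose, with means of -0.26 to 0.24 and 0.10 to 0.84. Of 3 measured of 5 neutrophil markers 1 rose, S100A9, by 7.05 (limma adjusted p = 0.00517). S100A8, at 1.53 (adjusted p = 0.167), and S100A12, at 1.07 (adjusted p = 0.147), did not pass. The means of the 3, to which S100A9 contributed most, were -0.67 to 2.23 in non-pregnant and 0.88 to 4.58 in pregnant sows. The part of these cell types in the lower lipid genes was not tested.

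Of 8 measured of 10 trophoblast markers none was called, with means of -0.31 to 0.52 in non-pregnant sows and -0.20 to 1.91 in pregnant sows, the highest being sow 10. Of 4 measured of 6 adipocyte markers none was called, with means of -0.24 to 0.14 and -0.09 to 0.25, and the defining marker ADIPOQ lay at a mean of 4.15, below the lower quartile of all values, 4.66. The means of 3 measured of 6 macrophage markers ranged from -0.58 to 2.50 in non-pregnant sows, the highest being sow 7, and from -0.20 to 0.41 in pregnant sows. Those of 6 measured of 8 lymphocyte markers, none called, were -0.44 to 1.37, the highest again sow 7, and -0.25 to 0.30. Of 5 measured of 6 smooth muscle markers 1 rose, with means of -0.30 to 0.34 in non-pregnant and -0.10 to 0.86 in pregnant sows. The GAPDH 3′ minus 5′ difference did not separate pregnant from non-pregnant sows, at 0.597 ± 0.141 against 0.538 ± 0.150 (SD, n = 6 each, exact permutation p = 0.487).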

How the data were processed

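The deposited table holds log2 expression values per probe set, 1 array per sow. The submitters' processing notes list RMA, affy and limma but no version. No coordinates or sequences are printed, because a genome build for the array is not given in the sources used here. Of 24123 probe sets, 124 manufacturer controls were left out. Symbols came from the platform annotation: 10069 probe sets had 1, 198 had several and 13732 none. A gene with several probe sets was represented by the brightest.

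Group differences were fitted and tested in R 4.3.3 with limma 3.58.1 (lmFit then eBayes, two-sided, Benjamini-Hochberg over 23999 probe sets, adjusted p under 0.05). Pregnancy and breed came from an additive fit (9 residual degrees of freedom), the interaction and within-state differences from a 4-group fit (8). Each sow is 1 replicate, a separate animal per the labels. The procedure was tested on simulated data. Correlations had exact permutation tests.

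The members and gene lists were chosen with earlier results of these data known, so the lower level of lipid genes is not independent support. Named genes were the members, up to 4 called genes per list and direction, the 3 most alike genes per member, and SREBF1, SREBF2, INSIG1, SCD, NR1H3 and APOE. FDFT1, TM7SF2 and NSDHL complete the cholesterol list. A planned search for promoter motifs was not run. Alternatives were cyclic loess, median centring, a filter on dim probe sets, a trended robust prior, array weights, probe set means, no breed term and leaving out each sow. Leaving out sows 7 and 12 together, likeness without sow 12 and the breed contrasts within each pregnancy state, which are given without a test, were chosen after seeing the data.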

Additional observations from a re-analysis of the deposited data

Results flagged for a closer look

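Among 60 sets of 6 sows screened (each named gene in pregnant and in non-pregnant sows), 5 had 1 sow lying far from the other 5, and chance gives about 1 in 20. HMGCS1 in pregnant sow 12 was at 8.32, with the next pregnant value at 7.28. Non-pregnant sow 7 had the lowest FDPS value of its group, 10.17 against 11.33 for the next, and the lowest MSMO1 value, 10.16 against 10.56. MGLL was highest in non-pregnant sow 11, at 7.04 with the next at 6.54. PPARGC1A was highest in pregnant sow 2, at 7.22 with the next at 6.60.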

How the results depend on the processing

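No called result changed direction under any alternative run, but some named pregnancy calls were lost. With cyclic loess SCD (limma adjusted p = 0.0578) and PPARGC1A (0.0503) did not pass. With median centring APOA1 (limma adjusted p = 0.0506) and PPARGC1A (0.0525) did not pass. SCD and APOA1 were also lost without sows 7 and 12. LIPA was lost on probe set means. Without the breed term FDPS, SCD, LPL, SREBF2, CYP27A1, APOA1, MGLL and PPARGC1A were lost. The count of breed calls among the 5 genes, 1 in the reported fit, was 0 with cyclic loess, with median centring, with the trended robust prior and without sows 7 and 12 together, and 0 to 1 when any 1 sow was left out. The count of interaction calls among them was 0 under every alternative. The pregnancy calls among the 95 other lipid genes, 18, became 30 with array weights, 10 without the breed term, 27 without sows 7 and 12, and 8 to 25 when any 1 sow was left out. The cholesterol synthesis falls, 5, became 8 with array weights and 8 without sows 7 and 12, and 4 to 7 when any 1 sow was left out, with 0 rises throughout. The breed calls among the other lipid genes, 7, became 2 without sows 7 and 12 and 3 to 6 when any 1 sow was left out. The causes of these changes were not tested. No paired analysis was possible because the groups share no replicate numbers. The low signal of ACACA limits what its difference can show.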
